A study of Rattus norvegicus with 39 samples.

Results

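The cytosolic ribosomal proteins were followed across 39 Affymetrix arrays of rat hippocampal CA1, 1 array per animal. Members were the probe sets (groups of short probes for 1 transcript) whose single platform symbol starts with Rpl or Rps followed by a digit or by p, with the S6 kinases left out. The rule used no measured value. It found 62 probe sets for 43 genes, of 8740 probe sets that were not array controls and 4736 genes with a single symbol. A mean at or above the 30th percentile of all probe sets (6.28 on the log2 scale) was required for testing, and 59 of the 62 members (41 of the 43 genes) were among the 6118 probe sets that passed. The animals were male Fischer 344 rats aged 18 months. The LowCORT plus injections group (10 animals) was adrenalectomized, carried a 25 mg corticosterone pellet for about 3 months and received 5 mg of corticosterone a day by intraperitoneal injection on 4 days near the end. The Intermediate CORT group (9 animals) was adrenalectomized and carried a 200 mg pellet, and the LowCORT group (10 animals) was adrenalectomized and carried the 25 mg pellet alone. The Sham group (10 animals) had a sham operation and an inert pellet. All adrenalectomized animals had corticosterone injections and sweetened saline before pellets were placed, and those on the low dose stayed on the saline and sucrose drink. Those features therefore differ from Sham together with the adrenal loss and cannot be told apart from it. The drink also differs between Intermediate CORT and both low-pellet groups, and there it cannot be told apart from the corticosterone dose. The design asks how adrenal loss and the level and timing of corticosterone replacement alter CA1 transcripts in aging animals.

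Cytosolic ribosomal proteins are the protein part of the ribosome. Large-subunit (Rpl) proteins surround the site of peptide bond formation, small-subunit (Rps) proteins surround the site of codon reading, and the stalk proteins (Rplp) recruit translation factors. Their mRNAs are abundant in every cell, and in mammals most begin with a run of pyrimidines at the 5′ end through which mTOR signalling controls their translation rather than their amount. Corticosterone acts in CA1 neurons through the glucocorticoid and mineralocorticoid receptors. The members comprised 28 large-subunit genes (41 probe sets), 13 small-subunit genes (19 probe sets) and 2 stalk genes (2 probe sets). Of these genes 27 had 1 probe set and 16 had 2 or more. Entrez identifiers matched 42 of the 43 genes to the GRCr8 annotation, spread over 17 chromosomes with 1 gene, Rpl39, on the X chromosome. Both Rps2-ps1 and Rps4x-ps9 are listed there as pseudogenes. Ribosomal protein genes have many near-identical retrocopies, so a probe set can bind the transcripts of more than 1 locus, and the names are those of the platform annotation.

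Array medians lay between 7.27 and 7.33 and upper quartiles between 8.52 and 8.67. The lowest upper quartile was that of LowCORT subject 20, whose mean over the members (10.41) was also the lowest in its group. Markers of pyramidal neurons were present, among them Nrgn, with a median of 12.34, and Pou3f1, with a median of 8.98, while Slc17a7 had a median of 5.87 and did not pass the filter. Markers of other cells were also present, among them the oligodendrocyte gene Mbp, with a median of 12.97, and the CA2-enriched gene Rgs14, with a median of 10.22. Arrays also differed in how evenly the 3′ and 5′ ends of control transcripts were labelled. The log2 difference between the 3′ and 5′ Gapdh control probe sets averaged 1.03 ± 0.60 in LowCORT plus injections, 0.63 ± 0.21 in Intermediate CORT, 0.81 ± 0.24 in LowCORT and 0.70 ± 0.22 in Sham (SD, n = 10, 9, 10 and 10). The same difference for beta-actin averaged 0.79 ± 0.69, 0.65 ± 0.36, 0.93 ± 0.40 and 0.68 ± 0.41 in those groups. In bulk tissue, fewer cells of a type and less RNA per cell cannot be told apart.

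Promoter sequences from RefSeq on GRCr8 matched 36 of the 43 genes. The stretches below run 30 bases, 15 before the annotated start and 15 from it onward, on the gene's own strand, and are shown because the pyrimidine-rich start is the feature these genes are known to share. Capitals mark CCTTT, a motif chosen after the sequences had been seen. Rpl21, Rps3a and Rps6 had probe sets that were higher in the later-numbered animals of a group, Rplp0 and Rps15 had the 2 probe sets that were lower there, and Rpl4 and Rps24 show the motif before and after the start.
Rpl21 at chr12:13386139-13386168, minus strand: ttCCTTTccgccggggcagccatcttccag
Rps3a at chr2:173827028-173827057, minus strand: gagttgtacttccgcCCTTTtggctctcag
Rps6 at chr5:106420526-106420555, minus strand: gacgcctcctaggcggtcggctgtgtcaag
Rplp0 at chr12:46718376-46718405, minus strand: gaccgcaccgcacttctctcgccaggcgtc
Rps15 at chr7:10068101-10068130, minus strand: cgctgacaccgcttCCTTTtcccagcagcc
Rpl4 at chr8:73566462-73566491, plus strand: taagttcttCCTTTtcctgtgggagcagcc
Rps24 at chr16:96502-96531, plus strand: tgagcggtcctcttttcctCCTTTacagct

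Within 30 bases on either side of the start, CCTTT on the gene's own strand was found for 16 of the 36 genes (44.4%), against 1885 of 27457 RefSeq promoters (6.87%). On the opposite strand it was found for 3 of the 36 genes (8.33%), against 7.76% of all promoters. Rps6 and Rplp0, as printed above, have no CCTTT in the 30 bases shown. The letters AAGATGG, the core of the YY1 motif, read on either strand over the 300 bases of each promoter entry, were found for 8 of the 36 genes (22.2%), against 7.30% of all promoters. CCGGAAG, a form of the ETS motif, was found for 9 genes (25.0%), against 9.22%. These matches describe letters in a window and say nothing about binding.

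No ribosomal protein probe set was called in any of the 6 comparisons between groups. A call is a Benjamini-Hochberg adjusted p under 0.05 in limma, fitted with 1 mean per group over all 39 arrays and adjusted over all 6118 probe sets. The share of all tested probe sets called was 1.68% for LowCORT against Sham, 2.14% for Intermediate CORT against LowCORT, 0.343% for injections against LowCORT, 0.196% for injections against Intermediate CORT, 0.229% for injections against Sham and 0.0163% for Intermediate CORT against Sham. At those rates a list of 59 would hold few calls, so a count of 0 is near the background. Unadjusted p-values under 0.05 were also few among the 59 members. There was 1 for LowCORT against Sham (13.6% of all tested probe sets), 0 for Intermediate CORT against LowCORT (11.9%) and 0 for injections against LowCORT (7.37%). There was 1 each for injections against Intermediate CORT (11.4%), injections against Sham (5.95%) and Intermediate CORT against Sham (4.22%). The F test over the 4 groups called 0 members at adjusted p under 0.05 (2.27% of all probe sets), with 1 member under 0.05 unadjusted (11.8% of all) and a lowest adjusted p of 0.134.

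The members' differences between groups were small. For LowCORT against Sham the median over the 59 probe sets was 0.04 (log2), with 42 above 0, beside a median of -0.01 and 47.1% above 0 over all tested probe sets. Medians were -0.01 for Intermediate CORT against LowCORT (21 above 0, with 52.8% of all tested probe sets), -0.04 for injections against LowCORT (14 above 0, with 54.9% of all) and -0.03 for injections against Intermediate CORT (22 above 0, with 56.8% of all). They were -0.01 for injections against Sham (27 above 0, with 52.2% of all) and 0.01 for Intermediate CORT against Sham (37 above 0, with 47.3% of all). Single arrays moved these medians. Without injected subject 34 the median was 0.01 for injections against Intermediate CORT and 0.04 for injections against Sham, both turned in sign, and -0.02 for injections against LowCORT. Without Sham subject 6 it was 0.02 for LowCORT against Sham. Without LowCORT subject 20 it was 0.06 for LowCORT against Sham, -0.04 for Intermediate CORT against LowCORT and -0.07 for injections against LowCORT. The Intermediate CORT medians were closest to 0 without LowCORT subject 29 (against LowCORT, -0.0024) and without Intermediate CORT subject 19 (against Sham, -0.0022, turned in sign). The comparisons share groups, and the members co-vary strongly, so the numbers above 0 are not independent counts. Both subunits gave like medians. In LowCORT against Sham the median was 0.04 over the 40 large-subunit probe sets and 0.03 over the 18 small-subunit probe sets, and in injections against LowCORT it was -0.04 and -0.06.

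**Figure D1:**
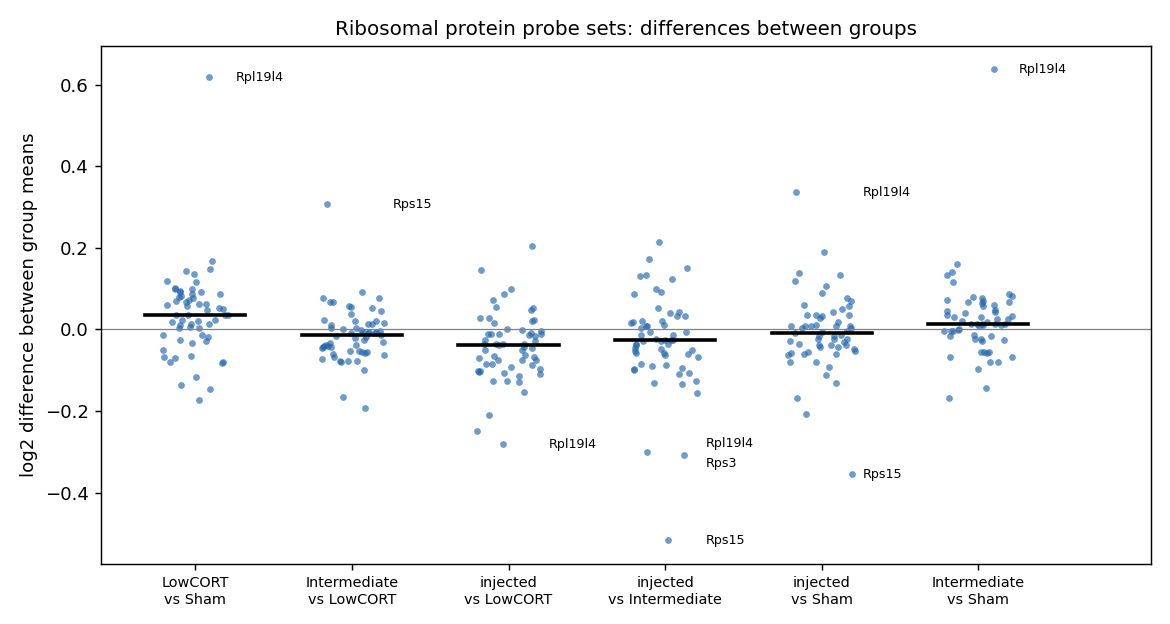
Differences between group means (log2, vertical axis) for the 59 ribosomal protein probe sets in the 6 comparisons (horizontal axis, 1 point per probe set, black bar at the median). Medians lie between -0.04 and 0.04, and the named points beyond 0.28 either way are Rpl19l4, 1 Rps15 probe set and 1 Rps3 probe set.

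The intervals give the precision of each difference. They are not adjusted for the number of tests, so they do not give the smallest change that could be called. In LowCORT against Sham, the 95% interval of the difference lay inside 1.25-fold in either direction for 47 of 59 members and inside 1.5-fold for 58 of 59. All tested probe sets had 79.4% and 96.7% inside those limits. Across the 6 comparisons, 45 to 51 members were inside 1.25-fold (77.6% to 83.8% of all tested probe sets) and 56 to 58 inside 1.5-fold (95.6% to 98.0%). The members' median standard error in LowCORT against Sham was 0.09, and that of all tested probe sets was 0.07. The median within-group SD between arrays, 1 per animal, was 0.21 for the members and 0.16 for all tested probe sets. Differences between animals and between array preparations cannot be told apart in it.

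The largest difference from Sham belonged to probe set X07686cds_s_at, which the platform names Rpl19l4 (chromosome 5), by name a copy of the large-subunit gene Rpl19. Which transcripts its probes bind was not checked. With group means removed, its SD of 0.44 was the largest of the members. Its correlation with the mean of the other members was 0.25, against a median of 0.69, and 9 members had one below 0. Its lowest, median and highest log2 values were 7.57, 7.99 and 9.36 in LowCORT plus injections, 7.89, 8.45 and 9.20 in Intermediate CORT, 8.04, 8.32 and 9.13 in LowCORT, and 7.25, 7.80 and 8.55 in Sham. All groups overlapped. LowCORT arrays began at 8.04, whereas 9 of the 10 Sham arrays reached no higher than 8.09 and the last stood at 8.55. LowCORT averaged 0.62 ± 0.19 (SE) above Sham, a 1.53-fold difference with a 95% interval of 0.24 to 1.00 and a limma adjusted p of 0.0829. Intermediate CORT averaged 0.64 above Sham (adjusted p = 0.643). Without the Sham array of subject 10 the LowCORT difference was 0.70 with an adjusted p of 0.0352, and without the injected array of subject 39 the adjusted p was 0.0398. With array weights it was 0.0360 and with subject order in the model 0.0397, so the call depends on 1 array or on the model. The probe set named for Rpl19 itself (rc_AA800054_at, chromosome 10) had medians of 12.11, 12.25, 12.23 and 12.15 in the same order of groups. Its LowCORT average was 0.15 ± 0.10 (SE) above Sham, with an adjusted p of 0.531. The Rpl19l4 values also went with the beta-actin 3′ to 5′ difference, by 0.55 per log2 unit (adjusted p = 4.18e-04). With both control-transcript differences in the model, the LowCORT difference was 0.46 (adjusted p = 0.0851). In that model the Intermediate CORT difference from Sham was 0.67 and was called (adjusted p = 0.0404), and 1 member was called in the F test over the groups (adjusted p = 0.0175).

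**Figure D2:**
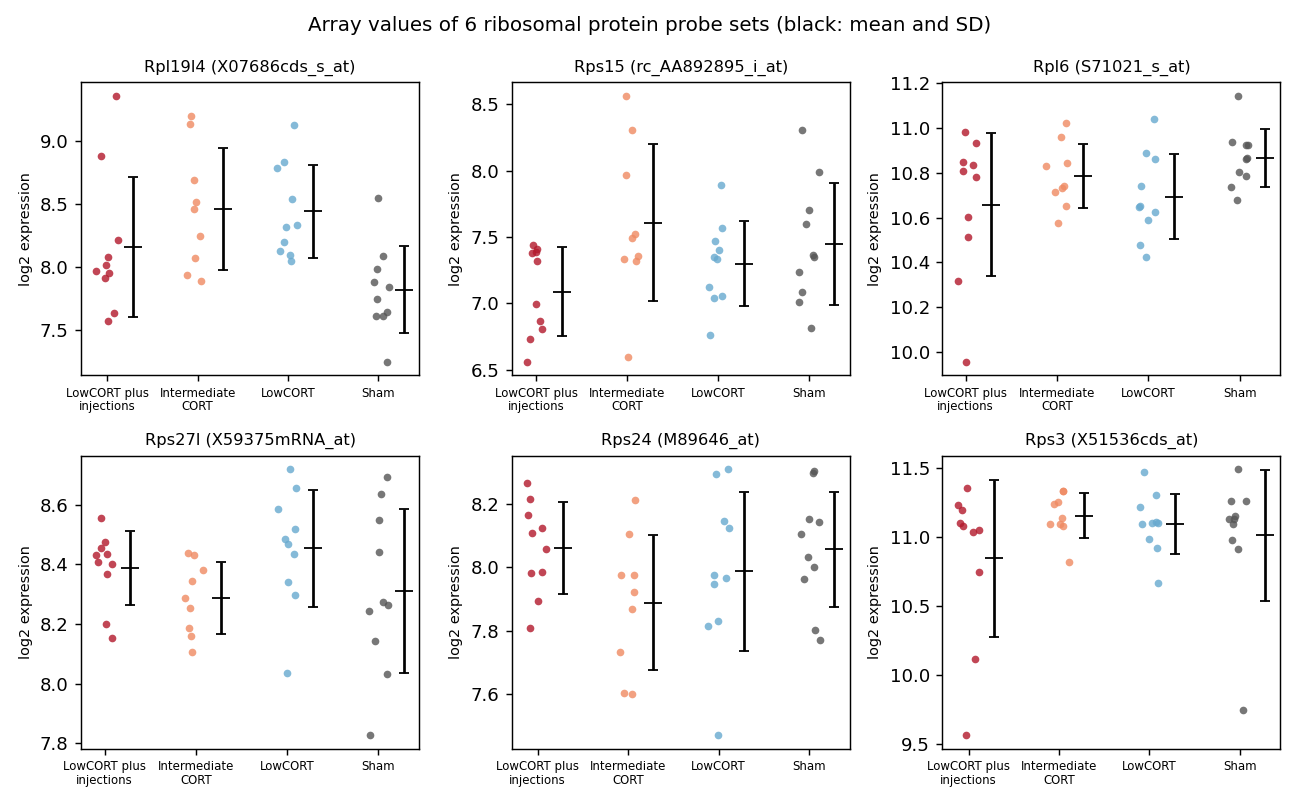
Log2 expression on every array for 6 ribosomal protein probe sets, 1 panel each, with the 4 groups along the horizontal axis and black marks for the mean and SD. Groups overlap in each panel, Sham Rpl19l4 values lie mostly under the LowCORT ones, and Rps3 has low arrays at 9.56 and 10.11 in LowCORT plus injections and at 9.74 in Sham.

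Rpl6, a large-subunit protein, had the lowest difference for LowCORT against Sham. For its probe set S71021_s_at the lowest, median and highest values were 9.96, 10.80 and 10.98 in LowCORT plus injections, 10.42, 10.65 and 11.04 in LowCORT, and 10.68, 10.86 and 11.14 in Sham. The groups overlapped, and 1 injected array (9.96) lay far below the rest. LowCORT averaged 0.17 ± 0.09 (SE) below Sham, a log2 difference of -0.17 with an adjusted p of 0.425. The injected group differed from Sham by -0.21 ± 0.09 (adjusted p = 0.771), and by -0.13 without the injected array of subject 35. The other Rpl6 probe set gave -0.12 and -0.13 in these comparisons. Both Rpl6 probe sets were lower on arrays with a larger Gapdh 3′ to 5′ difference, by -0.46 and -0.43 per log2 unit (adjusted p = 1.12e-06 and 1.42e-05). Injected subject 35 had the largest Gapdh difference of all arrays, 2.41, and the next was 1.56 (injected subject 39). Without subject 35 the lowest limma adjusted p of any member for the Gapdh difference was 3.66e-04. Values as small as those for Rpl6 therefore rest on that array. With both control-transcript differences in the model, the injected group differed from Sham by -0.06.

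Rps15, a small-subunit protein near the decoding site, had 3 probe sets that did not move together. For rc_AA892895_i_at the lowest, median and highest values were 6.56, 7.16 and 7.44 in LowCORT plus injections, 6.59, 7.49 and 8.56 in Intermediate CORT, 6.76, 7.34 and 7.89 in LowCORT, and 6.81, 7.36 and 8.31 in Sham. The highest Intermediate CORT and Sham arrays stood above every injected array, and the lower ends of all 4 groups were close. The injected group differed from Intermediate CORT by -0.52 ± 0.19 (SE, limma unadjusted p = 0.00967, adjusted p = 0.274). The other 2 Rps15 probe sets gave -0.10 and 0.03 in the same comparison. The correlation between Rps15 probe sets over the 39 arrays, with group means removed, was 0.02, 0.04 and 0.42. With both control-transcript differences in the model, the difference of rc_AA892895_i_at between the injected group and Intermediate CORT was -0.33.

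Rps3, a small-subunit protein at the mRNA entry site, had its widest spread in the same group. X51536cds_at ranged over 9.56, 11.07 and 11.35 (lowest, median and highest) in LowCORT plus injections, 10.81, 11.14 and 11.34 in Intermediate CORT, 10.67, 11.10 and 11.47 in LowCORT, and 9.74, 11.13 and 11.49 in Sham. The group medians were close, and the arrays far below the rest were 2 injected arrays and 1 Sham array. The injected group differed from Intermediate CORT by -0.31 ± 0.18 (adjusted p = 0.506), and without the injected array of subject 34 by -0.16. With both control-transcript differences in the model it was -0.06.

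Of the remaining named small-subunit members, Rps27l, a paralog of Rps27 that p53 induces in human cells, gave -0.17 ± 0.09 in Intermediate CORT against LowCORT (adjusted p = 0.459). Its medians were 8.42 in LowCORT plus injections, 8.29 in Intermediate CORT, 8.48 in LowCORT and 8.27 in Sham, and the ranges overlapped. Rps24, a gene mutated in some human patients with Diamond-Blackfan anaemia, gave 0.17 ± 0.09 for injections against Intermediate CORT (adjusted p = 0.458) and -0.17 ± 0.09 for Intermediate CORT against Sham (adjusted p = 0.998). Its medians were 8.09, 7.92, 7.97 and 8.07 in LowCORT plus injections, Intermediate CORT, LowCORT and Sham. Rps10, another small-subunit protein, gave 0.21 ± 0.10 for injections against LowCORT (adjusted p = 0.684). Its highest injected array, that of subject 35, stood at 11.71 and its highest LowCORT array at 10.96. Without injected subject 35 the Rps10 difference was 0.12. The pseudogene-named Rps4x-ps9 gave 0.21 ± 0.16 for injections against Intermediate CORT and -0.19 ± 0.16 for Intermediate CORT against LowCORT (adjusted p = 0.633 and 0.714).

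Rpl36, a large-subunit protein, gave 0.15 ± 0.10 for injections against LowCORT (adjusted p = 0.734), and 0.07 without injected subject 35. Its lowest, median and highest values were 10.36, 10.90 and 11.63 in LowCORT plus injections, and 10.51, 10.80 and 10.89 in LowCORT. The injected arrays reached both above and below the LowCORT range. Rpl21, a large-subunit protein with 4 probe sets, included 1 of the 3 widest within-group spreads of the members. Its rc_AA849648_g_at ran from 7.26 to 8.69 in LowCORT plus injections, 7.40 to 8.58 in Intermediate CORT, 7.37 to 8.67 in LowCORT and 7.71 to 8.57 in Sham. Medians of that probe set were 8.06, 8.00, 8.01 and 8.13, and Intermediate CORT differed from Sham by -0.14 ± 0.18 (adjusted p = 0.998), and by -0.07 without Intermediate CORT subject 12. At the narrow end, Rps29 (rc_AA965264_at) had medians of 13.07, 13.13, 13.14 and 13.09 in the same groups, and Rps2-ps1 (L81138exon_i_at) had 7.72, 7.73, 7.75 and 7.73.

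The paralogs Rpl3 and Rpl3l were both measured. Rpl3 lies close to the peptidyl transferase centre, and Rpl3l replaces it in striated muscle. Both had 2 probe sets, and 0 of the 4 were called in any comparison. Rpl3 rc_AA892367_i_at had medians of 11.76 in LowCORT plus injections, 11.90 in Intermediate CORT, 11.90 in LowCORT and 11.83 in Sham. Rpl3l rc_AA891037_at had medians of 7.61, 7.61, 7.53 and 7.64, and its LowCORT mean differed from Sham by -0.14 ± 0.08 (adjusted p = 0.477). A single Sham array carried both Rpl3l probe sets far above the other 9, at 8.39 and 7.39.

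The other 3 members stayed below the filter. Rpl5, which with Rpl11 and 5S rRNA can bind the p53 regulator Mdm2, had medians of 5.59 in LowCORT plus injections, 5.38 in Intermediate CORT, 5.50 in LowCORT and 5.61 in Sham. The stalk-type Rplp1l3 had medians between 4.25 and 4.29, and the third was the other probe set of Rps2-ps1. Values this low on this platform do not separate a missing transcript from a probe set that binds poorly.

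Other genes of translation gave no calls between the groups. None of the 3 probe sets of Rpsa and Rack1 (a small-subunit protein and a scaffold on the small subunit, both outside the symbol rule), the 9 of elongation factors, the 30 of initiation factors, the 15 of mitochondrial ribosomal proteins or the 17 of ribosome biogenesis was called in any of the 6 comparisons. The lowest adjusted p among them was 0.146, for Nolc1, a nucleolar chaperone, in injections against Intermediate CORT (-0.22). Over all tested probe sets 0.0163% to 2.14% were called per comparison, so counts of 0 in lists this short are near the background. Of 18 probe sets for mTOR and S6 kinase signalling, Sgk1 alone was called. Sgk1 is a kinase whose gene glucocorticoids and mineralocorticoids switch on. It differed by -1.50 on the log2 scale in LowCORT against Sham (adjusted p = 2.90e-07) and by -1.38 in injections against Sham (adjusted p = 6.78e-06), lower than Sham in both. It was 0.71 higher in Intermediate CORT than in LowCORT (adjusted p = 0.0213). Sgk1 was not called in injections against LowCORT (0.12, adjusted p = 0.883) or injections against Intermediate CORT (-0.59, adjusted p = 0.157). Nor was it called in Intermediate CORT against Sham (-0.79, adjusted p = 0.165). The arrays on which 0 ribosomal members were called thus carried a corticosteroid-regulated transcript that was called in some comparisons and not in others. Differences of its size do not show whether changes as small as the members' medians could be called.

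Within groups, by contrast, the members moved together. Over the 39 arrays, with group means removed, the correlation between pairs of the 59 probe sets had a median of 0.31, and 73.3% of pairs were positive. Over all pairs of the 6118 tested probe sets the median was -0.01, with 49.3% positive. Among probe sets with a mean of 10 or more it was 0.52 for the 45 members and 0.06 for all 883. The first principal component of the members held 46.0% of their within-group variance and the second 19.4%. These correlations share the arrays, the labelling and the brightness of the members, and are given as a description.

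Against the mean of the other members, 39 of the 59 had a correlation above 0.5 and 9 had one below 0. The highest was for Rpl26 (X14671cds_s_at, 0.94), followed by Rps3a (0.93) and Rpl39 (0.92). Rpl26 binds near the peptide exit tunnel and Rps3a near the mRNA exit of the small subunit. The lowest was for Rplp0, the base of the stalk, at -0.54, then Rps15 (rc_AA892895_i_at, -0.35) and Rps10 (-0.22). Rplp0 was thus higher on the arrays on which most members were lower. Probe sets of the same gene correlated with a median of 0.67 over 22 pairs of 15 genes, between 0.02 for 1 Rps15 pair and 0.96 for 1 Rpl21 pair.

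**Figure D3:**
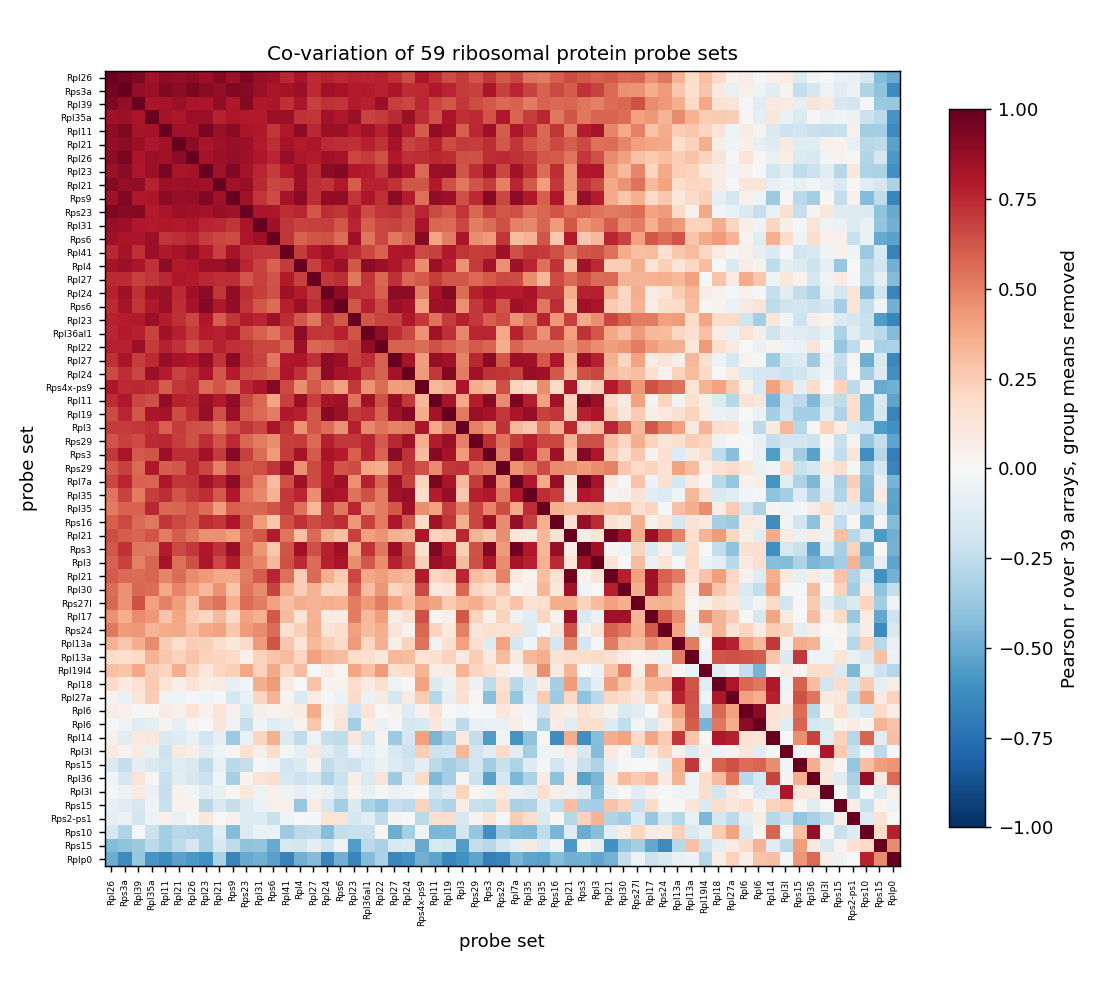
Pearson correlation over 39 arrays, group means removed, between each pair of the 59 ribosomal protein probe sets, ordered by their correlation with the mean of the others (colour scale from -1 to 1). Most of the upper left is positive (39 members above 0.5), and the last rows, ending in Rps10, Rps15 and Rplp0, are negative against it.

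The mean of the 59 members on an array lay in overlapping ranges in the 4 groups and differed along the subject numbers within them. It ran from 10.34 to 10.81 (median 10.59) in LowCORT plus injections, 10.49 to 10.78 (median 10.63) in Intermediate CORT, 10.41 to 10.77 (median 10.64) in LowCORT and 10.41 to 10.74 (median 10.60) in Sham. Later subject numbers of a group had higher means than its first 5. They averaged 10.70 against 10.47 in LowCORT plus injections, 10.68 against 10.57 in Intermediate CORT, 10.70 against 10.56 in LowCORT and 10.61 against 10.58 in Sham. The labels give subject numbers but not what their order stands for (housing, surgery, dissection or array processing).

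**Figure D4:**
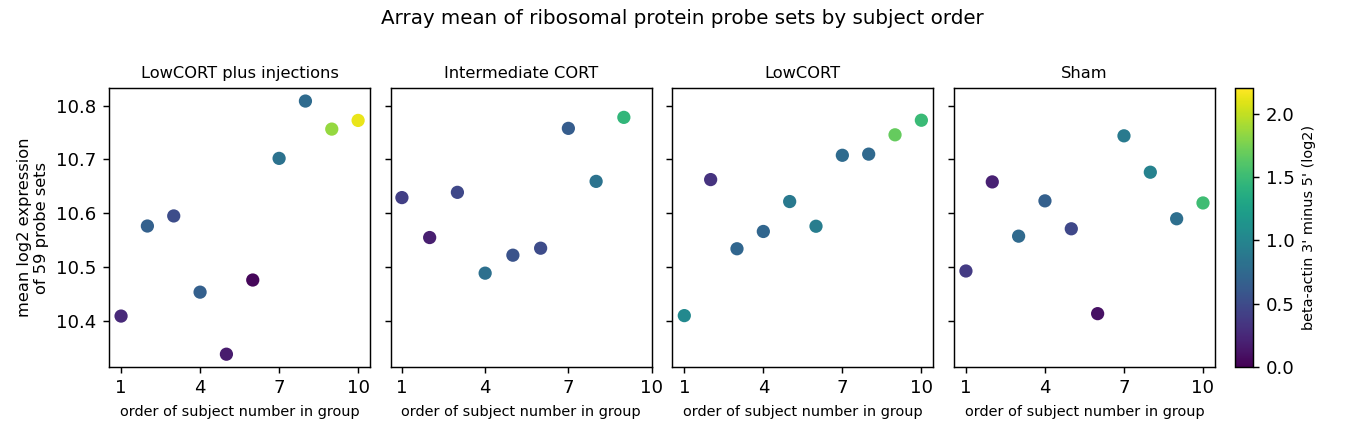
Mean log2 expression of the 59 ribosomal protein probe sets (vertical axis) against the order of the subject number within its group (horizontal axis), 1 panel per group, 1 point per array, coloured by the beta-actin 3′ minus 5′ difference (log2). Later subjects have higher means in every group (10.70 against 10.47 in LowCORT plus injections, 10.61 against 10.58 in Sham), and the arrays with the largest beta-actin difference lie among the later subjects.

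With group means in the model, 32 of the 59 members were related to subject order at a limma adjusted p under 0.05, of which 30 were higher in later subjects and 2 lower. The background is large: 41.7% of all tested probe sets were called, 21.3% higher and 20.3% lower. The members' share called higher was 50.8%. Of members with a mean of 10 or more, 21 of 45 (46.7%) were called higher, against 29.1% of all such probe sets. A relation to subject order was thus common on these arrays, and the directions were near equal over all probe sets but unequal over the members. The steepest positive slopes belonged to Rpl21 (rc_AA849648_g_at, 0.11 log2 units per step of order, adjusted p = 9.55e-08), Rps4x-ps9 (0.10, 9.84e-08), a further Rpl21 probe set (rc_AA849648_at, 0.09, 1.90e-07) and Rpl17, a protein of the exit tunnel (0.08, 3.67e-06). These Rpl21 probe sets correlated with each other at 0.96 and had means of 8.09 and 8.40. The brighter Rpl21 probe sets M27905_at and X15216cds_s_at had slopes of 0.027 and 0.033 (adjusted p = 0.00355 and 0.0328). Rps6, the small-subunit protein that S6 kinase phosphorylates, had 0.07 for M29358_g_at (adjusted p = 1.71e-07) and 0.02 for its other probe set (adjusted p = 0.309). Rpl3 (rc_AA892367_i_at) and Rps3a both had 0.06 (adjusted p = 3.75e-06 and 5.20e-04), while the other Rpl3 probe set (X62166cds_s_at) had 0.01 (adjusted p = 0.784). The 2 negative slopes that were called were those of Rps15 (rc_AA892895_i_at, -0.10, adjusted p = 4.00e-05) and Rplp0 (-0.03, adjusted p = 0.00540). The brighter Rps15 probe sets E01534cds_s_at and rc_AA892895_r_at had slopes of -0.0053 and 0.0065 (adjusted p = 0.678 and 0.461).

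**Figure D5:**
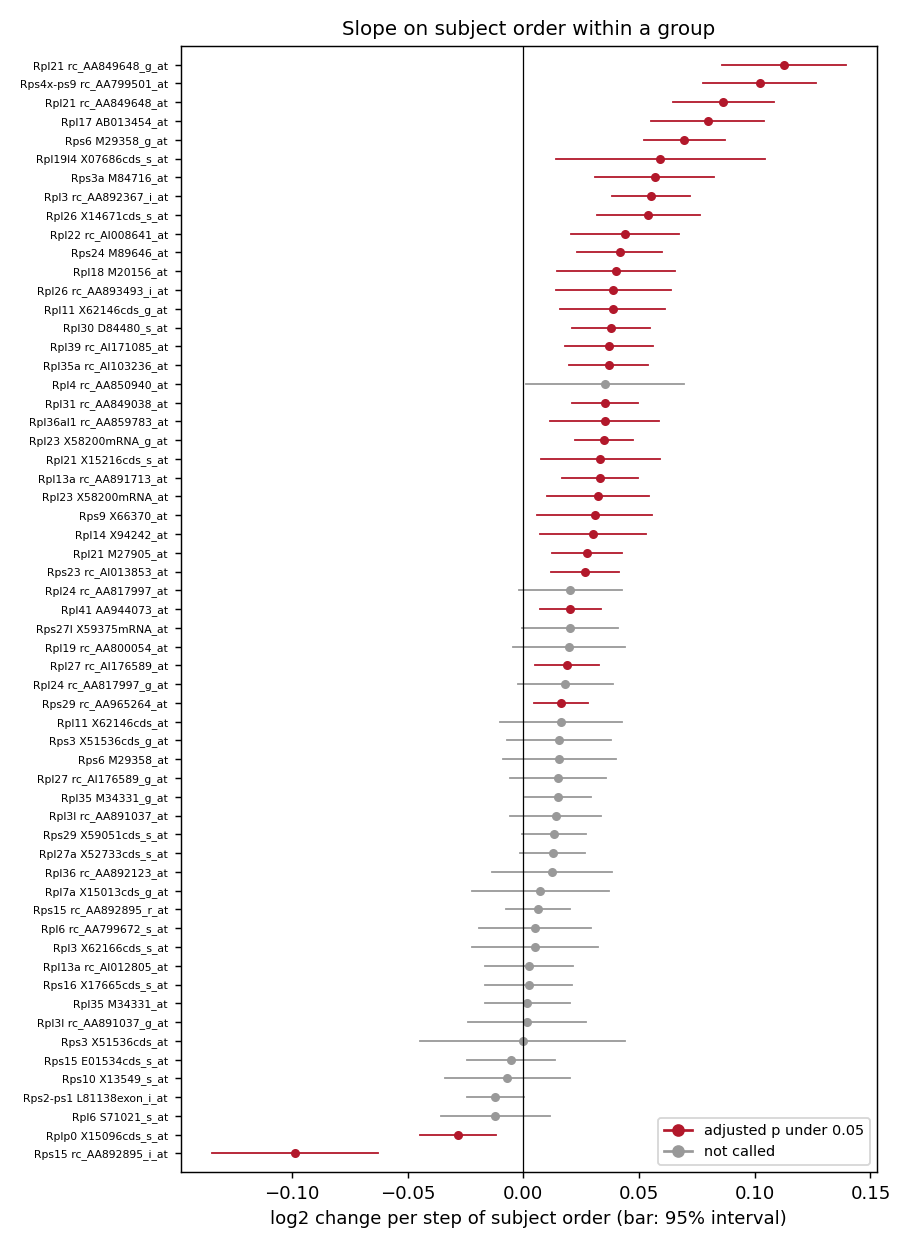
Slope on subject order within a group (log2 per step, horizontal axis) for each of the 59 ribosomal protein probe sets, with 95% intervals and red for adjusted p under 0.05. Of the slopes, 30 are called above 0, led by Rpl21 at 0.11, and 2 below 0, Rplp0 at -0.03 and Rps15 at -0.10.

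Fitted separately in each group, 53 of the 59 slopes were positive in LowCORT plus injections (median 0.04), 48 in Intermediate CORT (0.02), 55 in LowCORT (0.03) and 38 in Sham (0.01). Of all tested probe sets, 48.9%, 48.5%, 53.4% and 48.1% had positive slopes in the same order of groups. The members co-vary, so their slopes are not independent counts. The correlation of the array mean with order was 0.61 (Spearman 0.62) over 39 arrays with group means removed, and 0.60 without the 2 arrays farthest from the median order. By group it was 0.71, 0.53, 0.84 and 0.28 in LowCORT plus injections, Intermediate CORT, LowCORT and Sham.

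The beta-actin 3′ to 5′ difference, examined after the data had been seen, moved with the same transcripts. It was related to 36 of the 59 members, 33 positive and 3 negative, against 16.6% and 17.5% of all tested probe sets. Among members with a mean of 10 or more, 25 of 45 (55.6%) were called positive, against 26.6% of all such probe sets. The largest slopes were 0.56 for Rpl21 (rc_AA849648_g_at), 0.55 for Rpl19l4 and 0.51 for Rps4x-ps9 per log2 unit. The negative slopes that were called were those of Rps15 (rc_AA892895_i_at, -0.53), Rps10 (-0.27) and Rplp0 (-0.26, adjusted p = 1.11e-06). The other Rps15 probe sets had -0.04 and 0.03 and were not called. The array mean correlated with this difference at 0.60 (Spearman 0.57), and at 0.52 without the 2 farthest arrays. Both measures were related to the same 27 members, and with subject order in the model the number related to the beta-actin difference was 10 rather than 36. With both control-transcript differences in the model, 17 rather than 32 were related to order. The overlap and the counts from these fuller models have no share over all tested probe sets beside them.

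The Gapdh difference was related to 9 of the 59 members, 4 positive and 5 negative, against 9.27% and 12.3% of all tested probe sets. That count depended on the arrays and the model. It was 14 without injected subject 34 or 35, 21 (15 positive) with array weights and 20 (2 positive) with the beta-actin difference in the model as well. The positive count was 2 without injected subject 39 and 10 without injected subject 35. These other counts have no share over all tested probe sets beside them, so their changes cannot be read as particular to the members. With all arrays and group means alone in the model, the negative ones were both Rpl6 probe sets, Rps3 (X51536cds_at, -0.57), Rps15 (rc_AA892895_i_at, -0.53) and Rpl13a (rc_AI012805_at, -0.22), a large-subunit protein. The positive ones were Rpl19l4 (0.56), Rpl17 (0.38), Rpl36 (0.36) and Rpl30 (0.26). The array mean correlated with it at -0.04 (Spearman -0.01). Of the 59 members, 46 were related to at least 1 of the 3 measures and 13 to none. Of all tested probe sets, 21.5% were related to the Gapdh difference, 34.1% to the beta-actin difference and 41.7% to subject order. The share related to at least 1 was not counted over all probe sets, so the 46 cannot be read as a trait of the members.

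Other transcript groups and marker lists varied beside the ribosomal mean. Over 39 arrays with group means removed, the mean of the initiation factors correlated with it at 0.63, ribosome biogenesis at 0.53, mitochondrial ribosomal proteins at 0.16, elongation factors at 0.07 and mTOR and S6 kinase signalling at -0.11. In later subjects, 8 of 30 initiation factor probe sets, 7 of 17 biogenesis and 7 of 15 mitochondrial ribosomal probe sets were called higher, and 1, 2 and 1 lower, against 21.3% and 20.3% of all. Oligodendrocyte markers (13 probe sets) correlated at 0.61, and 3 of them were higher and 0 lower in later subjects. The 3 of 13, like the 8 of 30 initiation factors, is near the 21.3% of all tested probe sets called higher. The mean of the oligodendrocyte markers ran from 9.74 to 10.40 in LowCORT plus injections, 9.90 to 10.53 in Intermediate CORT, 9.69 to 10.39 in LowCORT and 9.86 to 10.52 in Sham. Blood transcripts (Hbb, Hbb-b1 and Alas2, 3 probe sets) correlated at 0.62, and all 3 were higher in later subjects. Their mean ran from 10.12 to 11.41, 9.41 to 10.57, 9.10 to 10.39 and 9.74 to 10.49 in the same groups. Pyramidal neuron markers (10 probe sets) correlated at -0.23 and CA3 and CA2 markers (6 probe sets) at -0.40. Astrocyte markers correlated at 0.30, interneuron markers at -0.32 and fibroblast and meningeal markers at -0.31. Oligodendrocyte precursor markers correlated at 0.31, microglia and macrophage markers at 0.27 and the dentate granule marker at 0.20. Choroid plexus and ependyma markers gave 0.18, endothelium and pericyte markers 0.15, and the ribosomal proteins outside the symbol rule 0.47. Calls for subject order are not given here for these lists or for the pyramidal, CA3 and CA2 lists. The part of cell makeup, blood, RNA length or array handling in the shared variation was not tested.

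The promoter letters can be set beside this variation. CCTTT near the start on the gene's own strand was present for 9 of the 19 matched genes with a probe set called higher in later subjects, and for 7 of the 15 other tested genes. Rps3a and Rps6 both had slopes that passed the test, with and without the motif in the stretches printed.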

How the data were processed

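The values are the authors' deposited log2 expression values, 1 column per array. MAS5, RMA and R 2.7.1 are named in the submitters' processing notes without saying which made them; array medians nearly coincide, and background correction and summarization are not given in the sources used here. Intensities were not renormalized. limma 3.58.1 in R 4.3.3 was fitted with 1 mean per group over 39 arrays (35 residual degrees of freedom) to 6118 probe sets with a mean at or above the 30th percentile, leaving out 59 control probe sets. Tests were two-sided, with Benjamini-Hochberg adjustment over all 6118 and calls at 0.05. Relations to the Gapdh difference, to subject order and, added after the data had been seen, to the beta-actin difference used the group means plus that covariate. The procedure was tested on simulated data. Replicates are single animals, and the number of arrays limits the precision. Members, gene lists and tests were chosen with earlier results of these data known.

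Named members were, per comparison, the 2 highest and 2 lowest differences, the 3 smallest and 3 largest within-group spreads, and the Rpl3 and Rpl3l pair. Members named for slopes, correlations or values below the filter were chosen after their values were seen. Alternatives were quantile normalization, median centring, other filters, array weights, covariates, trended robust variances, 1 probe set per gene and leaving out each array. Figures used matplotlib 3.10.9 in Python 3.11.15.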

Additional observations from a re-analysis of the deposited data

Results flagged for a closer look

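In 72 sets of 9 or 10 arrays (17 named probe sets and the mean of the members, each in 4 groups), 6 had an end value far from all others by Dixon's criterion, which chance meets in about 1 set in 20. Rps3 (X51536cds_at) stood at 9.74 in Sham subject 6, against 10.91 to 11.49 in the other Sham arrays, and at 10.81 in Intermediate CORT subject 14, against 11.08 to 11.34. Rps29 (rc_AA965264_at) stood at 12.93 in the same Sham subject 6, against 13.06 to 13.16. Rpl36 stood at 10.51 in LowCORT subject 20, against 10.69 to 10.89. Both Rpl3l probe sets were high in Sham subject 5, at 8.39 against 7.40 to 7.76 for rc_AA891037_at and at 7.39 against 6.03 to 6.47 for rc_AA891037_g_at.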

How the results depend on the processing

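The count of ribosomal members called was 0 in all 6 comparisons under quantile normalization, median centring, no filter, a filter at the 50th percentile, trended robust variances and 1 probe set per gene. With array weights 1 member was called in LowCORT against Sham (Rpl19l4, 0.68) and 1 in the F test, and 21 (15 positive) were related to the Gapdh difference. With both control-transcript differences as covariates 1 was called in Intermediate CORT against Sham (Rpl19l4, 0.67) and 1 in the F test, 20 (2 positive) were related to Gapdh and 17 (16 positive) to order, and Rps15 rc_AA892895_i_at gave 0.0019 in LowCORT against Sham in place of -0.15. With subject order as covariate 1 was called in LowCORT against Sham (Rpl19l4, 0.62) and 1 in the F test, 1 positive slope was called for Gapdh, and 10 (8 positive) were related to beta-actin. The cause of these moves was not tested. Leaving out 1 array at a time gave 0 to 1 calls in LowCORT against Sham (1 without Sham subject 10 or injected subject 39), 0 to 1 in the F test (1 without injected subject 39) and 0 in the other 5 comparisons. It gave 8 to 14 members for Gapdh (14 without injected subject 34 or 35), with 2 to 10 positive (2 without subject 39 and 10 without subject 35). It gave 32 to 37 for beta-actin, 29 to 34 positive, and 28 to 33 for order, 26 to 31 positive. The counts from these settings and array sets have no share over all tested probe sets beside them. No paired analysis was possible because the groups share no subject numbers. Signal near the array's floor limits Rpl5 and Rplp1l3.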
